A study of Mus musculus with 9 samples.

Results

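The m6A peaks listed at 10 genes for the Hsp70 and Hsp90 chaperones, Hspa1a, Hspa1b, Hspa1l, Hspa2, Hspa4, Hspa5, Hspa8, Hspa9, Hsp90aa1 and Hsp90ab1, are described here, out of 21900 protein-coding genes in the RefSeq annotation. The 10 genes were selected on peak calls already seen in the same wild-type libraries, so their values are given as a description and no test was run on them. Peaks were taken as belonging to a gene when any base lay within 500 bp of its annotated body, from the lowest to the highest coordinate of the gene. By this rule 5 of the 10 genes had a peak in wild-type replicate 1, where 41.3% of protein-coding genes had one, and 2 of these 5 also in replicate 2. The other 5 had none.

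The study measured N6-methyladenosine (m6A), a methyl mark on adenosines of mRNA, in mouse embryonic stem cells by immunoprecipitating mRNA fragments with an anti-m6A antibody and sequencing them (m6A-RIP-seq). It asked whether Zc3h13 is needed for the mark, and compared wild-type (WT), Mettl3KO and Zc3h13KO cells. The peak lists of the 2 WT immunoprecipitations (WT_IP) were used, and the other 7 of the 9 libraries were not analysed here. Every group carried the background labelled Rosa26:CRE, Bir ligase, a biotin ligase at the Rosa26 locus, and all cells grew on gelatin with serum and LIF conditioned medium.

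The lists differed in length, with 22531 peaks in replicate 1 and 5040 in replicate 2, and 4640 of the replicate 2 peaks (92.1%) overlapped a replicate 1 peak by at least 1 bp, against 4308 of the replicate 1 peaks (19.1%) the other way. Each peak had a fold enrichment over input and a −log10 q, where q is the p-value corrected for the number of places tested. The median peak of replicate 1 had a fold of 5.39 and a −log10 q of 28.9, and that of replicate 2 had 6.35 and 7.54. Read depth was unknown, so a gene without a peak had no peak listed at this depth and was not shown to lack m6A. A peak also needs a transcript, and the lists hold no expression values. Of 10 embryonic stem cell marker genes, 8 had a peak in replicate 1 and 2 of these (Tbx3 and Nr0b1) also in replicate 2, whereas Pou5f1 and Tfcp2l1 had none. The Nr0b1 peaks of the replicates did not overlap. Over all protein-coding genes, 41.3% had a peak in replicate 1 and 16.1% in both.

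Hsp70 proteins bind exposed hydrophobic stretches of unfolded proteins and release them in cycles of ATP hydrolysis, helped by J-domain proteins that start the hydrolysis and by exchange factors that remove ADP. Hsp90 proteins act later, on nearly folded clients such as kinases and steroid receptors. Some of the genes are active in nearly every cell, and others, such as Hspa1a and Hspa1b, are switched on by heat shock factor when proteins unfold. In mammalian mRNAs m6A is known to lie mostly near stop codons, in 3′ UTRs and in long internal exons, and heat shock mRNAs are known for m6A in 5′ UTRs under stress.

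Hspa1a and Hspa1b are near-identical copies, so reads from one can match the other, and the assignment of reads and peaks between them was uncertain. The sources used here do not give the treatment of reads with several matches. The 250 bases upstream of the annotated start of each gene are shown because a peak reached into this stretch at Hspa1b and none did at Hspa1a. They come from RefSeq on GRCm38.p6 and read 5′ to 3′ on the minus strand, from chr17:34972157-34972406 for Hspa1a and chr17:34959239-34959488 for Hspa1b. Capitals mark the bases that differ between the copies.

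Hspa1a: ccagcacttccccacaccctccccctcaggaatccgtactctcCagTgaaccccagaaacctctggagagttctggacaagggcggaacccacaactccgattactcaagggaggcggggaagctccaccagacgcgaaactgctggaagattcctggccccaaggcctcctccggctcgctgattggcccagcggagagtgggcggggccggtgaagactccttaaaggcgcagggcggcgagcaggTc

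Hspa1b: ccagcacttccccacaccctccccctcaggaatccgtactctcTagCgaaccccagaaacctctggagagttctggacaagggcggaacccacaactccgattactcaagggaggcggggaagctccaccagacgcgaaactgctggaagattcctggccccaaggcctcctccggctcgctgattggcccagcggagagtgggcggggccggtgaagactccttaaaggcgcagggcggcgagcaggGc

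The copies were identical at 247 of the 250 bases (98.8%). The 3 differing bases lay 207, 204 and 2 bases before the start, which left an identical run of 201 bases. At Hspa1b the last 151 bases of the stretch lay under a replicate 1 peak, and at Hspa1a 0 bases did. Each upstream stretch held 1 match to the paired heat shock element (GAANNTTC or TTCNNGAA, each the same on both strands), which 12.8% of 32851 RefSeq windows of this length held. Neither held the element of 3 units (GAANNTTCNNGAA or TTCNNGAANNTTC), found in 0.466% of windows. Upstream stretches of Hspa1l, Hspa2, Hspa4 and Hspa5 held 0 matches to either form. Only exact matches were counted, so elements with an imperfect unit were not sought. Promoter entries were matched for 6 of the 10 genes.

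A peak was listed at 5 of the 10 genes in replicate 1 (50.0%), where 41.3% of all protein-coding genes had one. In replicate 2 a peak was listed at 2 genes, where 16.9% of protein-coding genes had one. Both replicates had a peak at Hspa1l and Hspa2, thus at 2 of 10 genes (20.0%) against 16.1% of protein-coding genes. The background was close to this among the 12738 protein-coding genes with a body between 2798 and 40666 bp, the range of the 10 genes, of which 41.5% had a peak in replicate 1, 18.0% in replicate 2 and 17.0% in both. The genes were selected on these same peaks, so nothing is read from the difference. Together they held 11 peaks, of which 7 came from replicate 1 and 4 from replicate 2. All 4 replicate 2 peaks overlapped a replicate 1 peak by at least 1 bp, where 92.1% of all replicate 2 peaks did. Of the 4, 0 were shared if the overlap had to reach 50% of each peak and 2 if summits had to lie within 100 bp. The widths fixed the first of these counts. The replicate 2 peaks were 451 to 660 bp wide, inside replicate 1 peaks of 2052 and 2206 bp. Of the 7 replicate 1 peaks, 2 overlapped a replicate 2 peak, where 19.1% of all replicate 1 peaks did, and 5 had no counterpart.

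**Figure D1:**
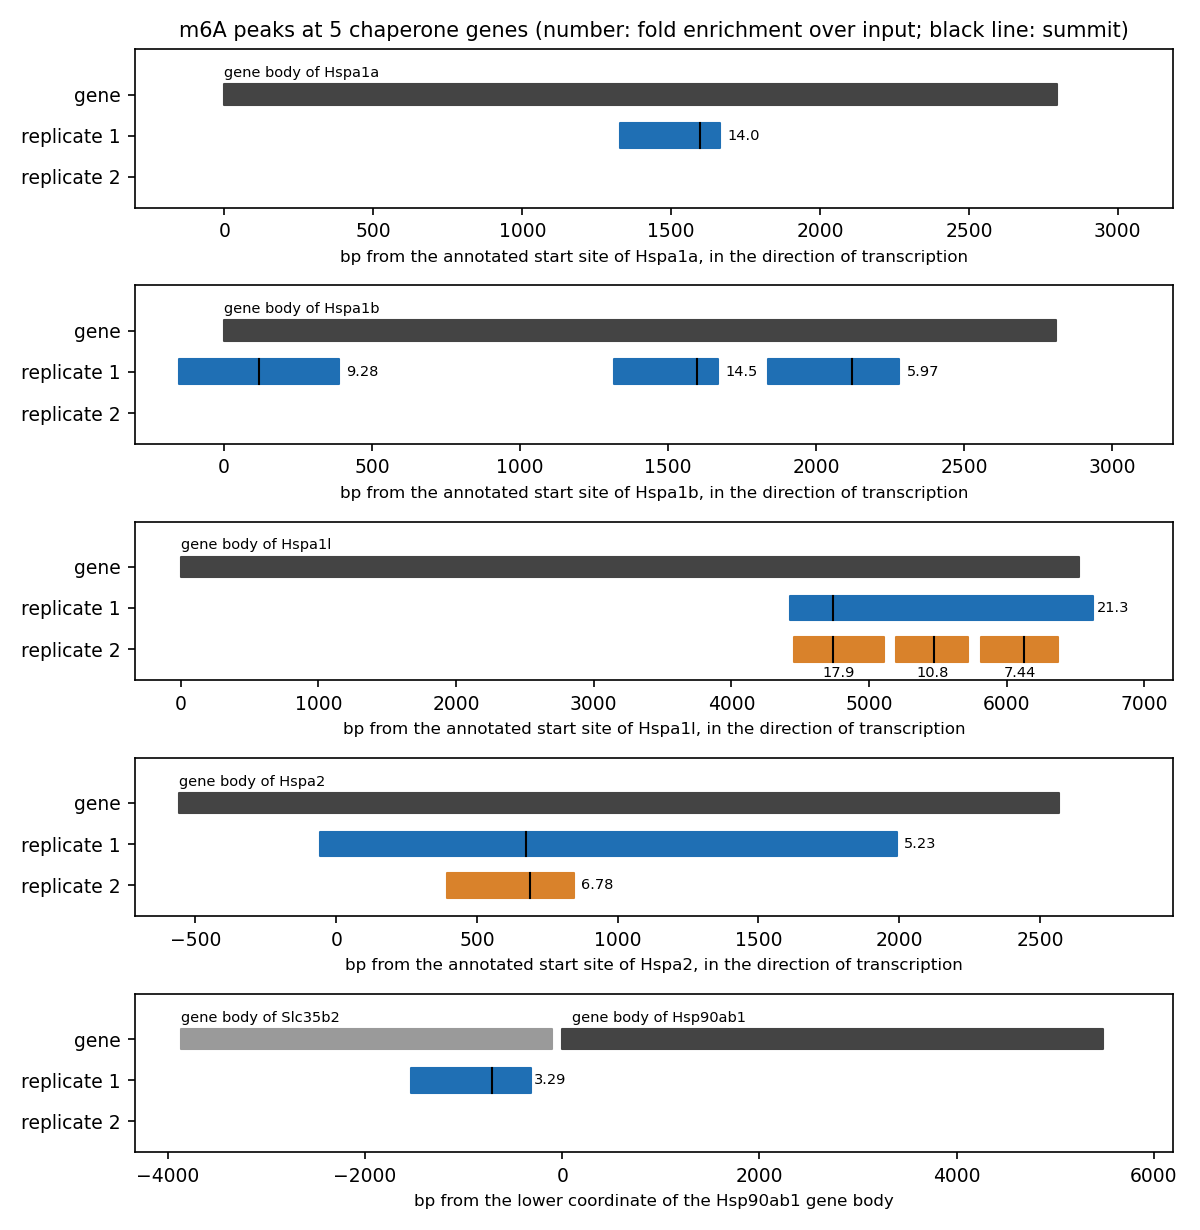
Positions of the 11 peaks at the 5 genes that had any (blue, replicate 1; orange, replicate 2), in bp from the annotated start site in the direction of transcription, or for Hsp90ab1 from the lower coordinate of its body. Dark bars are gene bodies, the light bar is the neighbour Slc35b2, black lines are summits and numbers are fold enrichments over input. The Hspa1l and Hspa2 rows alone have orange bars, and the Hsp90ab1 peak lies inside Slc35b2.

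Hspa1l, an Hsp70 gene known for its expression in male germ cells, had the highest enrichment of the 10 genes in both replicates. It lies on the plus strand at chr17:34972703-34979228 (mm10), and its body is 6526 bp long. In replicate 1 a peak of 2206 bp spanned chr17:34977127-34979332 with a fold of 21.3 over input and a −log10 q of 201. Its −log10 q ranked 270 in the replicate 1 list, counted from the highest, and its fold was at the 98.2 percentile of that list. The peak was also wide, at the 98.8 percentile of widths.

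In replicate 2, Hspa1l had 3 peaks, and all 3 lay inside the replicate 1 peak. The first spanned chr17:34977155-34977814 with a fold of 17.9 over input and a −log10 q of 29.5, which ranked 56 in that list. Its summit at 34977444 was 1 bp from the replicate 1 summit at 34977443. The second, at chr17:34977900-34978422, had a fold of 10.8 and a −log10 q of 14.4. The third, at chr17:34978518-34979077, had a fold of 7.44 and a −log10 q of 6.74. Enrichment in replicate 2 thus stepped down from the first peak towards the gene end. The 3 peaks were 85 and 95 bp apart and together covered 1743 bp, or 79.0% of the replicate 1 peak. Every peak of the gene lay in its later part. The replicate 1 peak began 4424 bp after the start site and ran 104 bp past the annotated end, and its summit lay 1785 bp before that end. Exon, stop codon and UTR positions were not used here, so the peak was not assigned to coding sequence or UTR.

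Hspa2, another Hsp70 gene with a known role in spermatogenesis, was the other gene with peaks in both replicates. Its replicate 1 peak ranked 5373 by −log10 q, so it was lost, and Hspa1l alone kept peaks in both, when the replicate 1 list was cut to the 5040 peaks of highest rank. Hspa2 lies at chr12:76403812-76406938 on the plus strand, with an annotated start site at 76404370 inside that body. In replicate 1 the peak at chr12:76404311-76406362 was 2052 bp wide, with a fold of 5.23 over input and a −log10 q of 61.5. In replicate 2 the peak at chr12:76404765-76405215 was 451 bp wide, with a fold of 6.78 and a −log10 q of 5.62. The narrow peak lay wholly inside the wide one and made up 22.0% of it, and the summits were 14 bp apart. The Hspa2 summits lay 675 and 689 bp after the start site, closer to it than the Hspa1l summits were to theirs. Measured from the gene end, the Hspa2 summits lay 1893 and 1879 bp before it. That was near the 1785 and 1784 bp of the highest Hspa1l peaks. It was not a position common to the Hsp70 genes, as the other summits at Hspa1a, Hspa1b and Hspa1l lay 399 to 2692 bp before the end. The replicate 1 peak covered 65.6% of the Hspa2 body and reached 59 bp upstream of the start site. It was also within 317 bp of the long noncoding RNA gene 4930426I24Rik, whose body overlaps that of Hspa2, but no base of the peak lay inside that gene.

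Relative to all peaks of their lists, the Hspa2 peaks were near the middle in fold. Fold was at the 48.4 percentile in replicate 1 and the 56.9 percentile in replicate 2, while the width in replicate 1 was at the 98.3 percentile.

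Hspa1a and Hspa1b, the stress-inducible Hsp70 genes, had 4 peaks in replicate 1 and none in replicate 2. Hspa1a (chr17:34969359-34972156, minus strand) had 1 peak at chr17:34970491-34970828 with a fold of 14.0 over input and a −log10 q of 45.2. The nearest replicate 2 peak lay 4999 bp from its body and was the first Hspa1l peak.

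Hspa1b (chr17:34956429-34959238, minus strand) had 3 peaks in replicate 1, which covered 42.2% of its body. The first, at chr17:34958849-34959389, had a fold of 9.28 and a −log10 q of 22.4, and it spanned the start site from 151 bp upstream to 389 bp downstream. The second, at chr17:34957569-34957920, had the highest fold of the gene, 14.5, with a −log10 q of 47.7. The third, at chr17:34956957-34957399, had a fold of 5.97 and a −log10 q of 42.3. The nearest replicate 2 peak was 17917 bp away.

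The Hspa1a peak and the second Hspa1b peak lay at nearly the same place in the gene. Their summits were 1598 and 1599 bp after the start site, and the 338 bp of the Hspa1a peak fell wholly within the Hspa1b peak on this scale, as 96.0% of the latter. Their folds differed by 0.474 and their −log10 q by 2.52. The other peaks of Hspa1b, around the start site and 1839 to 2281 bp after it, had no counterpart listed at Hspa1a.

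**Figure D2:**
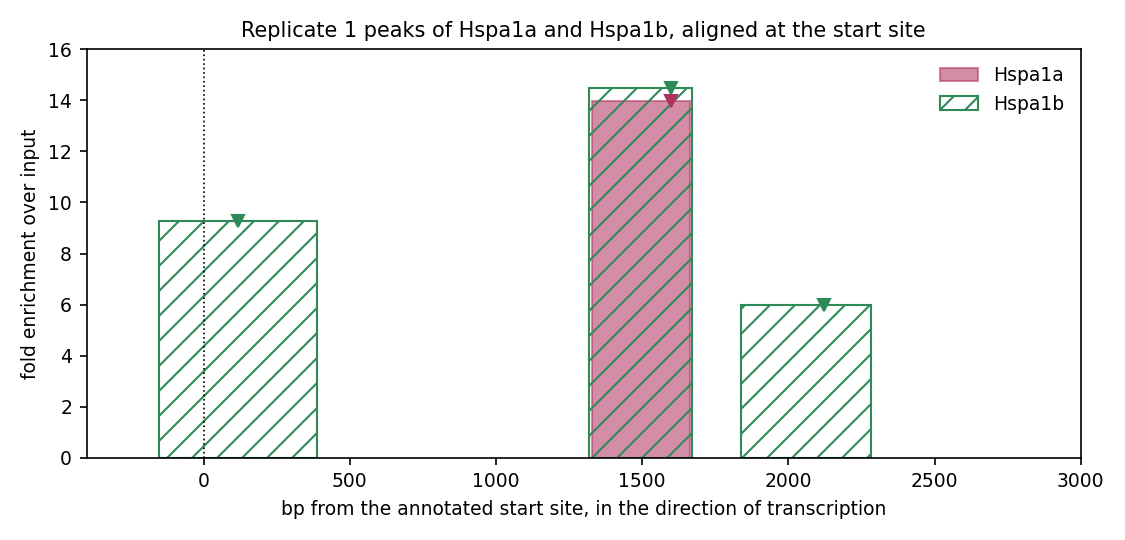
Fold enrichment over input (vertical axis) of the replicate 1 peaks at Hspa1a and Hspa1b against distance from the start site of each gene in bp (horizontal axis), drawn from edge to edge of each peak. The Hspa1a peak at a fold of 14.0 lies over the second Hspa1b peak at 14.5, and the Hspa1b peaks at 9.28 and 5.97 stand alone. Triangles mark summits and the dotted line marks the start site.

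A peak without a counterpart in replicate 2 was the common case at this level of significance. Among the 6245 replicate 1 peaks with −log10 q from 22.4 to 47.7, the range of these 4, 875 overlapped a replicate 2 peak, which is 14.0% (95% exact binomial interval 13.2 to 14.9, counting error only). By contrast, when the replicate 1 list was cut into 10 bins of −log10 q, 61.7% of peaks were shared in the bin of the Hspa1l peak, which was the top bin, and 28.2% in the bin of the Hspa2 peak.

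For their −log10 q, 3 of the 4 peaks at the copies had high folds. Among the 200 replicate 1 peaks nearest in −log10 q, 178 had a lower fold than the Hspa1a peak, where their median was 4.65. For the Hspa1b peak at the start site 193 of 200 were lower, with a median of 3.89. For the second Hspa1b peak 171 were lower, and for the third 122 were. The Hspa1a peak and the second Hspa1b peak may not be separate, as reads of one copy can match the other. High folds on this measure were not particular to the copies. For the Hspa1l peak of replicate 1, 167 of 200 were lower. For its 3 peaks of replicate 2, in order from the start site, 167, 117 and 192 of the 200 nearest replicate 2 peaks were.

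The 3 Hspa1 genes span 22800 bp of chromosome 17, and none of the peaks at them was within 500 bp of another Hspa1 gene. Hspa1a and Hspa1l are divergent neighbours with bodies 547 bp apart, and Hspa1b lies 10121 bp from Hspa1a. The Hspa1a peak was 1875 bp from the Hspa1l body, and the nearest Hspa1l peak was 4971 bp from Hspa1a. Each Hspa1 peak was therefore assigned to a single gene of the cluster at 500 bp.

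Hsp90ab1, the constitutive cytosolic Hsp90 gene, was a member by distance only. Its body is at chr17:45567778-45573261, and the replicate 1 peak at chr17:45566241-45567465 ended 313 bp outside it, with a fold of 3.29 over input and a −log10 q of 95.7. All of this 1225 bp peak lay inside Slc35b2, a gene for a nucleotide sugar transporter at chr17:45563913-45567671, with the summit 603 bp before the Slc35b2 end. No peak overlapped the Hsp90ab1 body in either replicate, and the nearest replicate 2 peak was 4852 bp away. Its fold was low for its −log10 q, as 13 of the 200 nearest replicate 1 peaks had a lower one, and their median was 5.89. At 313 bp it was the member peak just inside the 500 bp limit, whereas the closest peak outside the limit of any member was 1875 bp away.

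**Figure D3:**
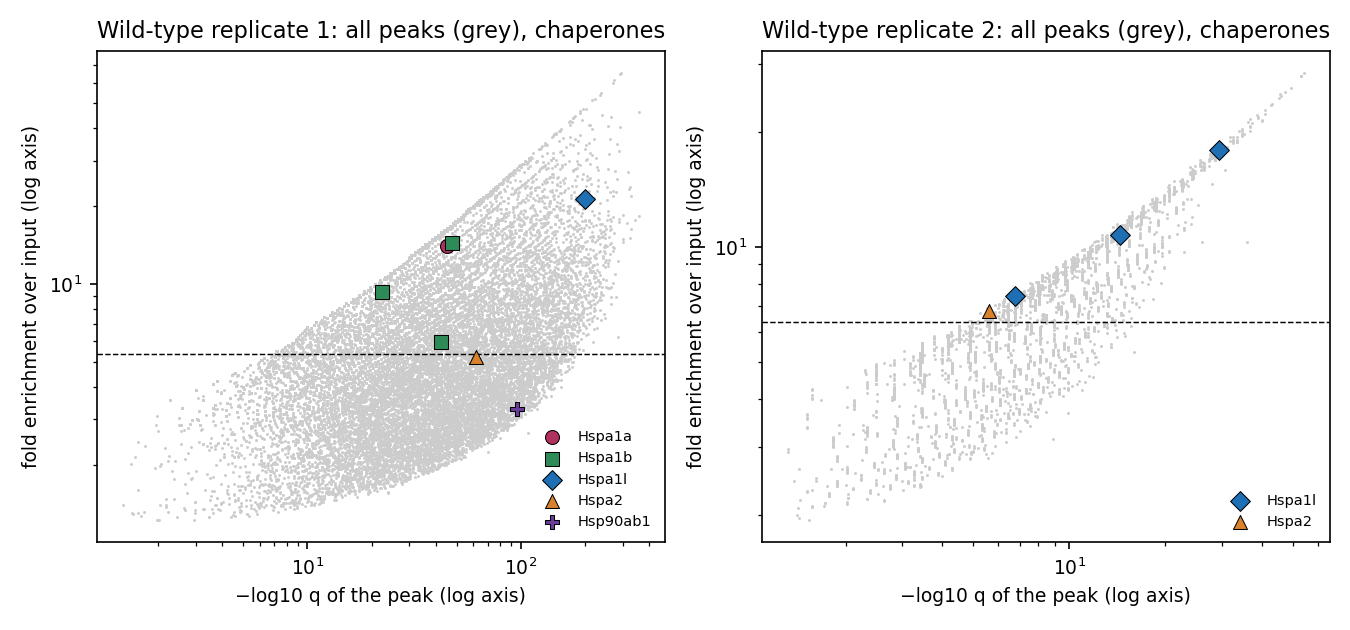
Fold enrichment over input against −log10 q for all peaks of replicate 1 (22531 peaks) and replicate 2 (5040 peaks), both axes logarithmic, with the peaks of the chaperone genes marked. Dashed lines are the median folds, 5.39 and 6.35. The highest Hspa1l peaks lie far above them at 21.3 and 17.9, and the Hsp90ab1 peak lies below at 3.29.

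The other 5 genes had no peak within 500 bp in either replicate. Hspa8, the constitutive cytosolic Hsp70 gene (chr9:40801276-40805202), had its nearest peak 16570 bp away in replicate 1 and 17341 bp away in replicate 2. Hsp90aa1, the inducible cytosolic Hsp90 gene (chr12:110691036-110696395), had them 23431 and 171607 bp away. Hspa5, which encodes the Hsp70 of the endoplasmic reticulum (chr2:34772090-34776529), had them 29211 and 43108 bp away.

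Hspa4, an Hsp110-type exchange factor gene and the longest of the 10 (chr11:53259814-53300479), had its nearest peaks 71722 and 136112 bp away. Hspa9, which encodes the mitochondrial Hsp70 (chr18:34937414-34954351), had them 73261 and 90707 bp away. These distances are far beyond the 2000 bp tried as a wider limit, so none of the 5 genes gained a peak there.

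Among 112 other genes of the chaperone system, heat shock factors included, 47 had a peak in replicate 1 (42.0%) and 16 in both (14.3%). These shares were near the 41.3% and 16.1% of all protein-coding genes. The remaining 65 had none, and 0 had a peak in replicate 2 alone. Of 7 other Hsp70 and Hsp110 genes, 4 had a replicate 1 peak and Hspa12a had peaks in both, with highest folds of 15.8, at a peak that also lay at Gm41877, and 8.0. Hspa14, which encodes a ribosome-associated Hsp70, reached 19.0 in replicate 1 and had no replicate 2 peak. Of 2 other Hsp90 genes, Hsp90b1 had no peak, and Trap1, the mitochondrial Hsp90 gene, had them 389 and 476 bp outside its body, where they also belonged to Dnase1.

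J-domain genes followed the background, with 18 of 43 in replicate 1 (41.9%) and 7 in both (16.3%). These 7 were Dnajb3, Dnajb5, Dnajc1, Dnajc16, Dnajc18, Dnajc22 and Dnajc30. Dnajc16 had the highest fold of them in replicate 1, 10.3, with 9.97 in replicate 2, and Dnajc22 had the highest in replicate 2, 12.3, with 7.07 in replicate 1. The Dnajc1 peaks of the replicates did not overlap, and the replicate 2 peak also lay at Mllt10. Peaks at Dnajb3 also lay at 8 Ugt1a genes, and those at Dnajc30 also at Bud23.

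Exchange factors and Hsp70 regulators had the largest share with a replicate 1 peak, 11 of 12 genes (91.7%), against 41.3% of protein-coding genes. Both replicates had a peak at 2 of the 12 (16.7%), near the 16.1% of protein-coding genes. Enrichment at the exchange factors and regulators was low. The highest folds per gene in replicate 1 ran from 2.03 at St13 to 4.08 at Bag6, all below the list median of 5.39. Some of these peaks were not at these genes alone. The St13 peak lay 38 bp outside its body and also at Xpnpep3, and the Bag1 peak lay 442 bp outside. The highest peaks of Stub1, Bag4 and Grpel2 also lay at Jmjd8, Gm17484 and Gm17883. Bag2 had folds of 2.64 and 3.35 and Bag3, a partner of Hsp70 in selective autophagy, had 4.0 and 3.77. Sil1, the exchange factor of the endoplasmic reticulum, was the gene without a peak.

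The shares over all protein-coding genes, for the lists that follow, were 41.3% in replicate 1 and 16.1% in both. Hsp90 co-chaperones had a replicate 1 peak at 7 of 20 genes (35.0%) and peaks in both replicates at 2 of them, Cdc37l1 and Unc45a. Chaperonin genes had 2 of 11 (18.2%) in replicate 1 and Cct7 in both. The highest peaks of Cdc37l1 also lay at Ak3, and those of Cct7 also at Pradc1, in both replicates. Small heat shock protein genes had 2 of 10 (20.0%), with Hspb6 in both, at folds of 7.58 and 8.65, and Hspb8 in replicate 1 alone at 13.4. The replicate 1 peaks behind these values also lay at Gm38670 and Proser3 for Hspb6 and at Gm36841 for Hspb8. Of 7 genes for heat shock factors and their binding proteins, Hsf1, the main activator of the heat shock response, had a replicate 1 peak at a fold of 1.94. Hsf4, a factor known for its role in the lens, had folds of 20.9 and 15.1, but those peaks lay 133 and 297 bp outside its body and also at Fbxl8. Counts of this size describe the lists only, and no difference between them was tested.

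**Figure D4:**
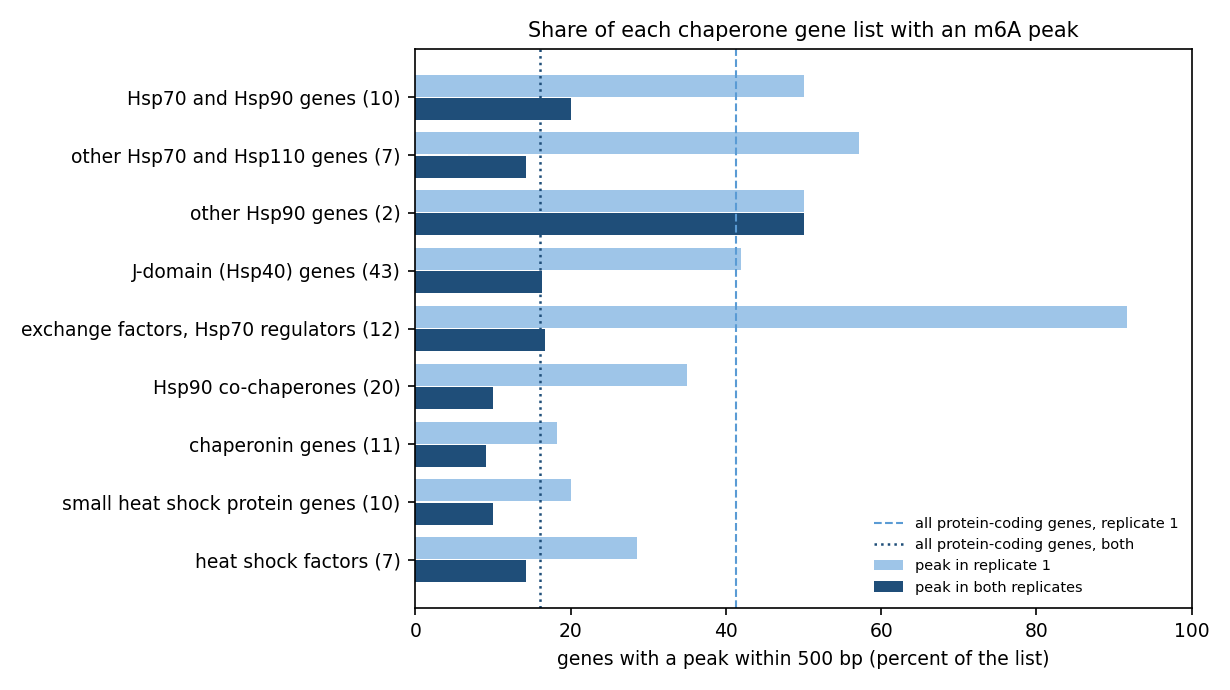
Percent of genes with a peak in replicate 1 and in both replicates (horizontal axis, from 0) for the 10 Hsp70 and Hsp90 genes and the other chaperone lists, with lines for all protein-coding genes (41.3% and 16.1%) and the number of genes in parentheses. Exchange factors and Hsp70 regulators stand highest in replicate 1 at 91.7%, and the 10 genes are at 50.0% and 20.0%.

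Among all protein-coding genes with a peak in both replicates, those whose highest folds were most like those of Hspa1l were Diras1 (21.5 and 17.6), Mapk4 (21.8 and 17.5) and Gdpd5 (21.9 and 17.5). Likeness was the distance between the log2 folds over the 2 replicates, among 3529 genes, and the distances were 0.0248, 0.0430 and 0.0500.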

How the data were processed

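m6A-RIP-seq was done on oligo-dT-selected mRNA with a rabbit polyclonal antibody and RNase T1 digestion on the beads. The authors aligned reads to mm10 and called peaks with MACS2 at default parameters in each replicate against input, without pooling replicates (tools named: Bowtie, SAMtools, MACS2; versions, duplicate and strand handling, and the input used for each replicate are not given in the sources used here). The deposited lists give for each peak a fold enrichment over input, which is a ratio, and −log10 p and −log10 q. The series has a single wild-type input library (WT_Input), so the folds of both replicates may share a denominator. The deposited score column was not used. MACS2 extends reads, so peak edges need not mark transcript edges. Peak names in the replicate 1 list do not name the wild type, and replicates were taken from the sample labels. The replicates are not said to come from separate cultures. Read depth is unknown, and no replicate error could be computed for a fold.

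Peaks were assigned to every RefSeq gene body (GRCm38.p6, the assembly of mm10) within 500 bp. Peaks overlapping by at least 1 bp were shared. Overlap and assignment were tested on simulated data. Sequences are from RefSeq. The members and lists were chosen with earlier results of these data known. Named were all 10 genes, the genes of the other lists with peaks in both replicates, and the 3 genes most like the top gene, with some examples chosen after their values were seen. Alternatives changed the distance, thresholds, overlap, assignment, list size and replicate. Tables were made in Python 3.11.15 (pandas 2.3.3 and numpy 2.4.6), intervals in scipy 1.17.1 and figures in matplotlib 3.10.9.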

Additional observations from a re-analysis of the deposited data

How the results depend on the processing

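When only the top 5040 peaks of replicate 1 by −log10 q were kept, the genes with a peak in both replicates fell from 2 to 1 (Hspa1l), the replicate 1 peaks at the 10 genes from 7 to 2, the protein-coding genes with a peak in both from 16.1% to 10.7%, and the median of the highest folds in replicate 1 moved from 14.0 to 12.3, the midpoint of the 2 genes left, Hspa1l (21.3) and Hsp90ab1 (3.29, a peak inside Slc35b2). Leaving out a replicate gave 2 to 5 genes and 16.9% to 41.3% of protein-coding genes. Of the 4 replicate 2 peaks, 0 were shared if the overlap had to reach 50% of each peak, which their widths did not allow. The count was 2 if summits had to lie within 100 bp. At 2000 bp, 1 peak was at more than a single Hspa1 gene, the Hspa1a peak, and 17.6% of protein-coding genes had peaks in both. That share was 15.4% at 0 bp, 12.8% at a −log10 q of at least 5, 11.6% at a fold of at least 4 and 15.5% with each peak given to its nearest gene. The median fold was 14.2 at 0 bp, at a fold of at least 4, with the nearest gene and by summit, as Hsp90ab1 dropped out. No test was run because the genes were selected on these same peaks, so no paired analysis was made. Read depth was unknown in both replicates, so its part in the unlisted peaks was not tested.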
